A study of Oncorhynchus mykiss with 15 samples.

Results

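The let-7 microRNAs of rainbow trout (Oncorhynchus mykiss) liver were taken as every row of the deposited small RNA table with let-7 in its name, whatever the species prefix, letter, arm or end form. There were 60 such rows of 1213. Rows that carried the same 15 values were counted once, which left 41 distinct let-7 profiles of 1019 in the table: 24 from the 5p arm and 17 from the 3p arm of the hairpin. The arm came from the name, or, for 9 profiles whose name gives none, from the sequence. A total of 31 profiles (19 from the 5p arm and 12 from the 3p arm) averaged 10 or more across the libraries and were tested; the other 10 did not reach that mean.

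Small RNA of wild-type liver was sequenced in 3 libraries per group. The 5 groups were control, hypoxia of 3 h, 12 h and 24 h, and reoxygenation of 3 h. The labels give neither the oxygen level, nor the length of hypoxia before reoxygenation, nor how many fish stand behind a library. Libraries of a group are named only as separate samples, so a p-value measures the spread between these samples, which may be technical. Values are the deposited normalized, rounded values, whose scale is not given in the sources used here. The number of reads behind a value is therefore unknown, and no counting interval can be set.

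Let-7 is among the oldest microRNA families of animals. A hairpin precursor is cut into a 5p strand, which is usually the guide that enters Argonaute and pairs with messenger RNAs through its seed, and a 3p strand that is usually degraded. In vertebrates let-7 levels are high in differentiated tissues, liver included, where the family represses targets such as Lin28, Hmga2 and Ras, and the protein Lin28 in turn blocks the maturation of let-7 precursors.

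The 7 most abundant 5p members are shown as the table lists them, 5′ to 3′, with the seed (bases 2 to 8) in capitals, because the members share that seed and differ only behind it.
ssa-let-7e-5p: tGAGGTAGtagattgaatagtt
ssa-let-7a-5p: tGAGGTAGtaggttgtatagtt
gmo-let-7j-5p: tGAGGTAGttgtttgtacagtt
ssa-let-7g-5p: tGAGGTAGtagtttgtatagtt
ssa-let-7b-5p: tGAGGTAGtaggttgtgtggtt
ssa-let-7i-5p: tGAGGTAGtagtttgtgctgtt
ssa-let-7h-5p_R-1: tGAGGTAGtaagttgtgttgt

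A prefix names the species of the database entry that a read matched (ssa is Atlantic salmon, gmo Atlantic cod), not the species sampled. Of the 24 profiles of the 5p arm, 22 had the seed GAGGTAG. Counted from 1 at the 5′ end of ssa-let-7a-5p, with its base first, ssa-let-7g-5p differed by G12T and ssa-let-7e-5p by G12A and T16A. ssa-let-7b-5p differed by A17G and A19G, and gmo-let-7j-5p by A10T, G12T and T18C. These changes also set the base composition: G and C made up 31.8% of ssa-let-7g-5p and ssa-let-7e-5p, 36.4% of ssa-let-7a-5p and gmo-let-7j-5p, and 45.5% of ssa-let-7b-5p. Reads can fit more than 1 form where forms are a base or an end apart, so the split between close members depends on the authors' assignment of reads.

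Over the whole table, miR-122, the defining hepatocyte microRNA, made up between 21.5% and 35.7% of a library's total in control and at 3 h of hypoxia, 55.7% to 60.2% in the 12 h hypoxia libraries, 25.2% to 59.05% in the 24 h hypoxia libraries and 26.5% to 57.2% in the reoxygenation libraries. The summed value of a library was lowest in control library 3, at 2090585, and highest in 24 h hypoxia library 1, at 6181106. Library 1 stood apart from the other members of its group among control, 24 h hypoxia and reoxygenation. Over the 31 let-7 profiles the SD of the log2 differences from control library 1 to the other control libraries was 1.92 and 1.88, against 0.48 between control libraries 2 and 3. It was 1.65 and 1.61 against 1.19 at 24 h, and 2.15 and 2.23 against 0.92 for reoxygenation. In bulk liver, fewer cells of a type and less RNA per cell cannot be told apart.

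Let-7 as a whole took 3.71% to 7.53% of the table's total across the 15 libraries and 3.99% to 4.43% at 12 h of hypoxia, within the 3.89% to 7.21% of control and below the 5.24% to 6.74% of 3 h hypoxia. The sum of the 5p profiles averaged 238797 ± 13089 after 12 h of hypoxia, against 141105 ± 18184 in control (SD, n = 3 each). The 3p sum averaged 5470 ± 59.1 after 12 h of hypoxia, against 13206 ± 3327 in control. In both sums the 12 h libraries did not overlap the control libraries, and lay above them for 5p and below them for 3p. These are sums of deposited values, not scaled to the library total. That total averaged 5755165 ± 17941 at 12 h against 2989302 ± 1225570 in control (SD, n = 3 each).

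The share of 3p in all let-7 does not depend on how a library was scaled. It was 5.79%, 11.7% and 8.76% in the control libraries, 8.09%, 10.3% and 11.8% after 3 h of hypoxia, 2.18%, 2.40% and 2.14% after 12 h, 1.71%, 4.28% and 9.35% after 24 h, and 3.60%, 5.14% and 2.28% after reoxygenation. The 3 libraries of 12 h hypoxia were alike and below every control and 3 h hypoxia library. The 24 h hypoxia libraries ran from below the 12 h values to within the control range, and all reoxygenation libraries were below all control libraries.

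**Figure D1:**
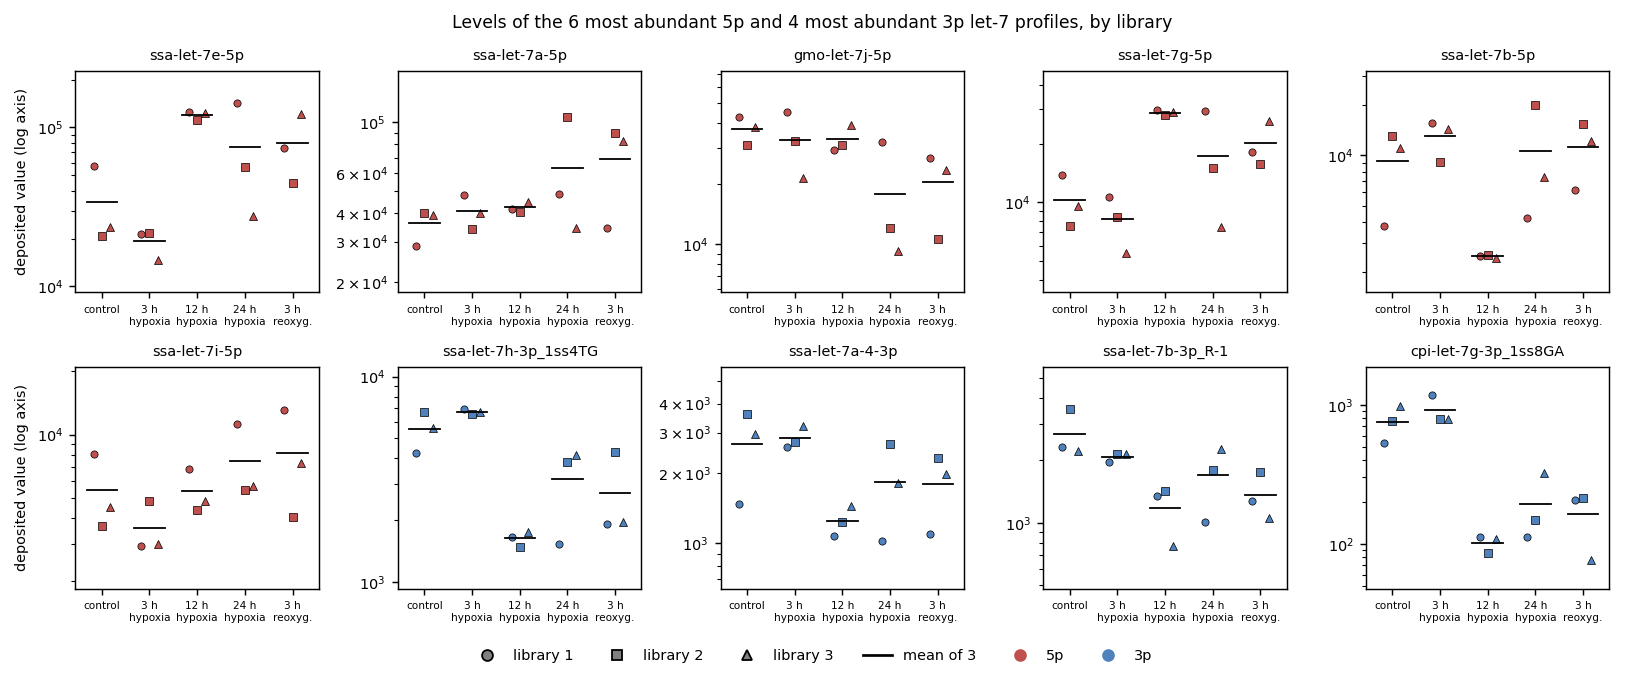
Deposited value (log axis) of the 6 most abundant 5p profiles (red) and 4 most abundant 3p profiles (blue) of let-7 in each library, by group, with the mean of 3 libraries as a line. ssa-let-7g-5p and ssa-let-7e-5p are highest and tightly grouped at 12 h, ssa-let-7b-5p, ssa-let-7h-3p_1ss4TG and cpi-let-7g-3p_1ss8GA are lowest there, and library 1 (circle) departs from libraries 2 and 3 in control, 24 h hypoxia and reoxygenation for several members.

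Among the 5p guides, ssa-let-7g-5p and ssa-let-7e-5p rose after 12 h of hypoxia, and no 5p member was called lower against control. ssa-let-7e-5p, the most abundant profile of the family, read 57619, 20668 and 23515 in the control libraries, 21208, 21707 and 14679 after 3 h of hypoxia, 124802, 111284 and 122442 after 12 h, 142349, 56008 and 27920 after 24 h, and 74020, 44941 and 120661 after reoxygenation. All 12 h libraries were above all control and 3 h hypoxia libraries, while the 24 h and reoxygenation libraries spread across the control range and above it. Its log2 change at 12 h was 1.97 ± 0.54 (SE, 3.93-fold on the log2(value + 1) scale, limma, Benjamini-Hochberg adjusted p = 0.0402).

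ssa-let-7g-5p read 13868, 7584 and 9541 in the control libraries, 10648, 8388 and 5521 after 3 h of hypoxia, 29625, 28077 and 28987 after 12 h, 29493, 14977 and 7484 after 24 h, and 18181, 15698 and 26282 after reoxygenation. It followed the order of ssa-let-7e-5p, with 12 h above control in every library, and the reoxygenation libraries were also all above the control libraries. The log2 change at 12 h was 1.53 ± 0.44 (SE, 2.89-fold, limma adjusted p = 0.0476), and the 0.97 ± 0.44 of reoxygenation did not pass (limma adjusted p = 0.288). Both 12 h calls were near the threshold and rested on the spread of all 15 libraries. That of ssa-let-7e-5p did not pass (limma adjusted p from 0.0508 to 0.161) without control library 2 or 3, any 3 h or 12 h hypoxia library, or 24 h hypoxia library 2, and that of ssa-let-7g-5p was lost without these and without reoxygenation library 2 or 3. Scaled to the library total, the 12 h differences of ssa-let-7e-5p and of ssa-let-7g-5p were 0.95 and 0.51, and both calls were lost on that scale, also when the total left out miR-122, without the variance trend and after the GC correction given below.

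ssa-let-7a-5p, the founding member whose sequence is identical in animals from worm to human, read 28746, 40050 and 39416 in control and 41812, 40631 and 44626 after 12 h of hypoxia. It reached 105380 in 24 h hypoxia library 2, and 89782 and 82696 in reoxygenation libraries 2 and 3, and was between 33999 and 48662 in all other 3 h and 24 h hypoxia and reoxygenation libraries. The 12 h values lay just above the control values, but the log2 difference of 0.25 ± 0.43 did not pass (SE, limma adjusted p = 0.763), nor did the 0.65 at 24 h or the 0.83 at reoxygenation. Scaled to the library total, the 12 h difference of ssa-let-7a-5p was -0.77.

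gmo-let-7j-5p read 42916, 31073 and 38173 in control, 45224, 32394 and 21259 after 3 h of hypoxia, 29290, 31158 and 39081 after 12 h, 32171, 12035 and 9276 after 24 h, and 26799, 10681 and 23276 after reoxygenation. All reoxygenation libraries were below all control libraries, and the 24 h libraries overlapped them only through library 1. The log2 differences of -0.98 ± 0.46 at reoxygenation and -1.27 ± 0.46 at 24 h did not pass (SE, limma adjusted p = 0.320 and 0.197).

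ssa-let-7b-5p, 2 bases from let-7a, read 3785, 13005 and 11052 in control, 15642, 9071 and 14475 after 3 h of hypoxia, 2510, 2521 and 2419 after 12 h, 4204, 20111 and 7468 after 24 h, and 6193, 15467 and 12143 after reoxygenation. The 12 h libraries were close to each other and below all the others. Against control the log2 difference was -1.72 ± 0.56 (SE, limma adjusted p = 0.0782) and did not pass, with control library 1 nearest to the 12 h libraries. It was called lower in 5 of the 15 other settings tried.

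ssa-let-7i-5p ran from 2946 to 13116 over the 15 libraries, and ssa-let-7h-5p_R-1 from 1284 to 9562. Their 12 h libraries overlapped the control libraries, with log2 differences of 0.04 and -0.28 (limma adjusted p = 0.966 and 0.807). ssa-let-7c-5p averaged 181 ± 31.4 after 12 h of hypoxia against 379 ± 210 in control, and ssa-let-7d-5p 368 ± 34.4 against 391 ± 22.0. ssa-let-7j-5p, another entry than the cod-named one, averaged 191 ± 109 after 24 h of hypoxia and 176 ± 94.5 after reoxygenation, against 30.0 ± 11.4 in control. Its libraries in both groups lay above the control libraries, with log2 differences of 2.45 ± 0.64 and 2.37 ± 0.64 that did not pass (SE, limma adjusted p = 0.0779 and 0.0715). At reoxygenation dre-let-7a_1ss9TG and hsa-let-7e-5p_R-1 also lay wholly above control. Their log2 differences of 2.84 ± 0.78 and 3.12 ± 1.15 did not pass (SE, limma adjusted p = 0.0745 and 0.210). Both were highest in reoxygenation library 1, at 659 and 239.

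Within a library, the members can be set against each other without any scaling. ssa-let-7e-5p made up 50.05% ± 1.3 of the 5p sum after 12 h of hypoxia, against 23.2% ± 11.0 in control (SD, n = 3 each). The ratio of ssa-let-7e-5p to ssa-let-7b-5p was 15.2, 1.59 and 2.13 in the control libraries, 1.36, 2.39 and 1.01 after 3 h of hypoxia, 49.7, 44.1 and 50.6 after 12 h, 33.9, 2.78 and 3.74 after 24 h, and 11.95, 2.91 and 9.94 after reoxygenation. This ratio sets the 5p member with the largest rise at 12 h over one that was lower there (log2 differences of 1.97 and -1.72). Its separation of the 12 h libraries is therefore not separate support. The GC contents of the 2 members were 31.8% and 45.5%. All 12 h libraries were above every other library, and control library 1, 24 h hypoxia library 1 and reoxygenation library 1 were the highest of their groups.

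Those 3 libraries also had the highest ssa-let-7e-5p to ssa-let-7a-5p ratio of their groups, at 2.00, 2.93 and 2.15. That of 24 h hypoxia library 1 lay within the 2.74 to 2.98 of the 12 h libraries, and the others lay below it. The miR-122 share of 24 h hypoxia library 1 and reoxygenation library 1 was also in the 12 h range, at 59.05% and 57.2%. The miR-122 share of control library 1 was 31.7%, inside the control range. Reoxygenation library 3 was also near the 12 h libraries in part. Its miR-122 share was 52.9%, and its 3p share of all let-7 (2.28%) and its ssa-let-7e-5p value (120661) lay within their range. Its ssa-let-7e-5p to ssa-let-7a-5p ratio of 1.46 lay below it. Control library 1, the 12 h libraries, 24 h hypoxia library 1 and reoxygenation libraries 1 and 3 had summed values of 4214194 to 6181106. The other libraries, all 3 h hypoxia libraries among them, had 2090585 to 3048356. The ssa-let-7e-5p to ssa-let-7a-5p ratio was 1.46 to 2.98 in the first set and 0.36 to 0.81 in the second. What else these libraries share, and the part of this split in the 12 h differences, was not tested.

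ssa-let-7a-5p and gmo-let-7j-5p have the same GC content, though not the same count of each base. Their ratio, chosen after the values were seen, was 0.67, 1.29 and 1.03 in control, 1.06, 1.05 and 1.89 after 3 h of hypoxia, 1.43, 1.30 and 1.14 after 12 h, 1.51, 8.76 and 3.71 after 24 h, and 1.28, 8.41 and 3.55 after reoxygenation. In the 24 h and reoxygenation groups libraries 2 and 3 were above all control, 3 h and 12 h hypoxia libraries, and library 1 of both groups was within their range.

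**Figure D2:**
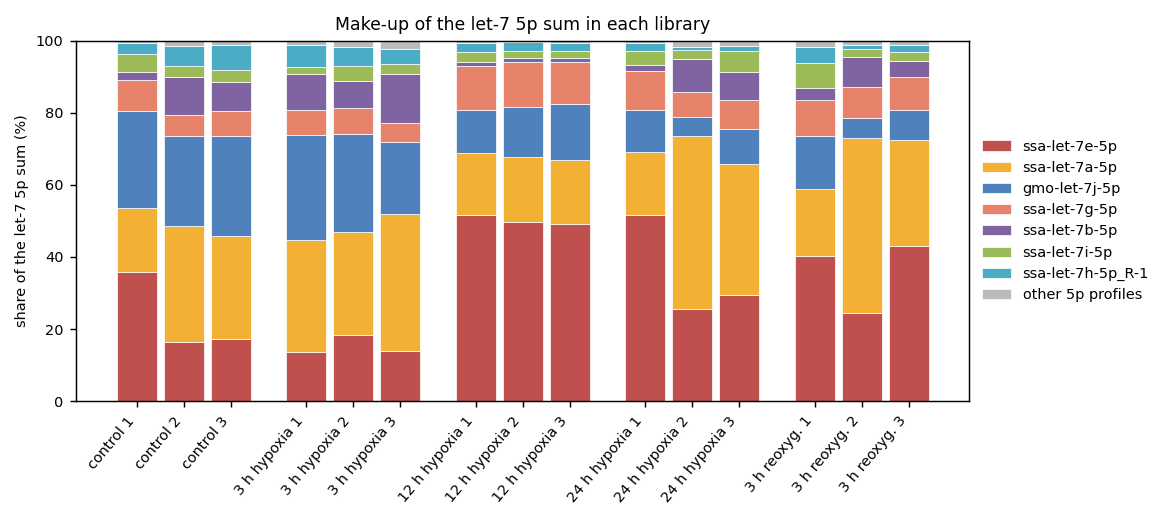
Share (%) of each of the 7 most abundant 5p profiles and of all others in the let-7 5p sum of each library, as stacked bars. ssa-let-7e-5p (red) fills 49.0% to 51.5% in the 12 h hypoxia libraries and 51.6% in 24 h hypoxia library 1, against 16.5% to 35.8% in control, and ssa-let-7b-5p (purple) narrows to between 0.97% and 1.12% at 12 h.

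The 4 most abundant 3p profiles are shown with bases 2 to 8 in capitals, and with them 2 of the other 3p profiles, ssa-let-7i-2-3p_R-1, which was called, and ssa-let-7g-3p_1ss22CT, the salmon-named let-7g-3p. Unlike the 5p arm, these do not share those bases: the 17 profiles of the 3p arm had 8 different runs at bases 2 to 8.
ssa-let-7h-3p_1ss4TG: cTAGACAActtactgccttcct
ssa-let-7a-4-3p: cTATACAGtctattgccttcct
ssa-let-7b-3p_R-1: cTGTACAAcctactgccttcc
cpi-let-7g-3p_1ss8GA: cTGTACAAgccactgccttgc
ssa-let-7i-2-3p_R-1: cTGCGCAAgctactgccttgc
ssa-let-7g-3p_1ss22CT: cTATACAGtctactgtctttct

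The 3p arm gave the 2 falls at 12 h of hypoxia. ssa-let-7h-3p_1ss4TG, the most abundant 3p profile, read 4267, 6725 and 5618 in control, 6956, 6565 and 6722 after 3 h of hypoxia, 1661, 1487 and 1764 after 12 h, 1541, 3822 and 4149 after 24 h, and 1913, 4302 and 1961 after reoxygenation. The 12 h libraries were below all control and 3 h hypoxia libraries, and so were the 24 h libraries. The log2 change at 12 h was -1.74 ± 0.41 (SE, to 0.300 of control, limma adjusted p = 0.0228), and the -0.91 at 24 h did not pass (limma adjusted p = 0.342). The 12 h call did not pass (limma adjusted p from 0.0529 to 0.0913) without control library 2 or 3 or any 12 h library.

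cpi-let-7g-3p_1ss8GA is named after a painted turtle entry. It read 530, 762 and 976 in control, 1167, 795 and 784 after 3 h of hypoxia, 111, 86 and 108 after 12 h, 112, 149 and 321 after 24 h, and 206, 212 and 76 after reoxygenation. Every 12 h, 24 h and reoxygenation library was below every control and 3 h hypoxia library. The log2 change was -2.85 ± 0.48 at 12 h (SE, to 0.139 of control, limma adjusted p = 0.00595) and -2.29 ± 0.48 at reoxygenation (SE, to 0.205, limma adjusted p = 0.0161). The -2.06 ± 0.48 at 24 h did not pass (SE, limma adjusted p = 0.0700).

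The 12 h fall of cpi-let-7g-3p_1ss8GA passed with each of the 15 libraries left out in turn. The reoxygenation fall did not pass without control library 2 or 3 or reoxygenation library 3. It was also lost after the GC correction (-1.54), in a fit of the groups compared alone and under both scalings to the library total, although the difference scaled to the total was -2.70.

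ssa-let-7a-4-3p averaged 1253 ± 186 after 12 h of hypoxia against 2679 ± 1091 in control, and ssa-let-7b-3p_R-1 averaged 1183 ± 361 against 2691 ± 731 (SD, n = 3 each). All 12 h libraries of both were below all control libraries, but the log2 differences of -1.01 ± 0.43 and -1.21 ± 0.38 did not pass (SE, limma adjusted p = 0.144 and 0.0653). ssa-let-7i-2-3p_R-1 averaged 91.7 ± 9.1 after 12 h of hypoxia against 339 ± 197 in control, a log2 difference of -1.64 ± 0.50 that did not pass (SE, limma adjusted p = 0.0607). ssa-let-7e-3p_L+3R-2 was higher, at 447 ± 67.1 against 173 ± 85.7, with no overlap and a log2 difference of 1.47 ± 0.53 that did not pass (SE, limma adjusted p = 0.109).

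Taken by arm, 2 of 19 tested 5p profiles rose and 2 of 12 tested 3p profiles fell at 12 h of hypoxia against control. Of all 622 tested profiles 7.07% were called in that comparison, 4.82% as higher and 2.25% as lower. The median log2 difference was 0.04 over the 5p profiles and -1.25 over the 3p profiles, and -0.19 over all tested profiles. The 12 h libraries lay wholly above the control libraries for 3 and wholly below for 1 of the 19 profiles of the 5p arm, and wholly above for 1 and wholly below for 8 of the 12 profiles of the 3p arm. Over all tested profiles 16.4% lay wholly above and 23.6% wholly below.

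Once each library was scaled to its total, the median of all profiles was -1.21, that of the 5p profiles -0.98 and that of the 3p profiles -2.26. No let-7 profile was called higher on this scale and 8 were called lower, among 59 calls over all profiles.

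**Figure D3:**
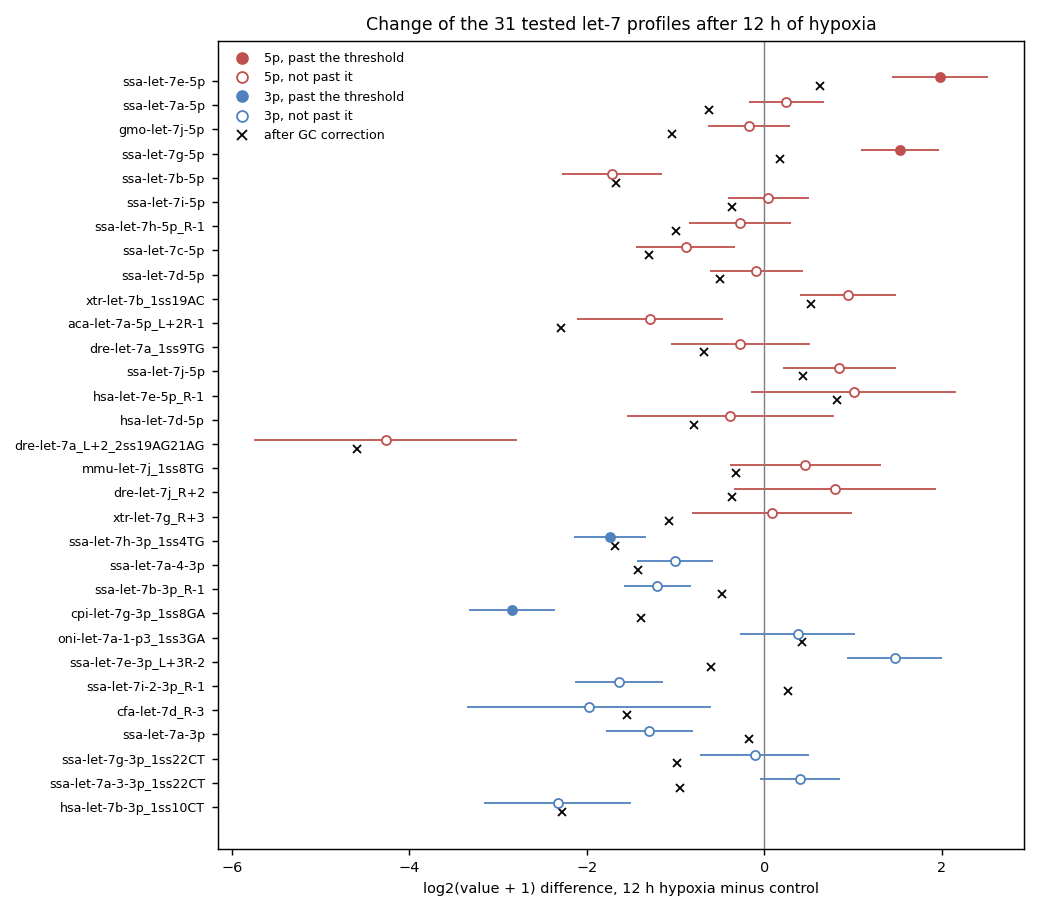
Log2(value + 1) difference between 12 h hypoxia and control for the 31 tested let-7 profiles, with bars of 1 SE, filled where the limma adjusted p was under 0.05, and a cross for the same difference after the GC correction. Most 3p profiles (blue) lie left of 0, 5p profiles (red) lie on both sides, and no profile was past the threshold after the correction.

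Base composition moved with the 12 h differences. Over the 31 let-7 profiles the GC content and the log2 difference had a Spearman correlation of -0.69, over the 19 from the 5p arm -0.42, over the 12 from the 3p arm -0.70, and over the 591 other tested profiles -0.59. These are descriptions across profiles of the same 6 libraries, and profiles are not replicates. The median GC content was 45.5% for the 3p arm and 40.9% for the 5p arm.

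Profiles with the same GC content differed in some cases and were close in others. At 36.4% GC, ssa-let-7a-5p, gmo-let-7j-5p and ssa-let-7g-3p_1ss22CT had log2 differences of 0.25, -0.17 and -0.11. Those at 40.9% GC ran from -1.01 to 0.94. At 45.5% GC, ssa-let-7b-5p, ssa-let-7h-3p_1ss4TG and hsa-let-7b-3p_1ss10CT had log2 differences of -1.72, -1.74 and -2.33, and oni-let-7a-1-p3_1ss3GA had 0.37. At 31.8% GC, ssa-let-7g-5p and ssa-let-7e-5p had 1.53 and 1.97, and ssa-let-7a-3-3p_1ss22CT had 0.40. The 5 profiles of at least 50% GC were all from the 3p arm and all below 0.

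After a per-library correction for GC content, no let-7 profile was past the threshold at 12 h against control. ssa-let-7e-5p was at 0.62 and ssa-let-7g-5p at 0.18 (limma adjusted p = 0.580 and 0.853), ssa-let-7h-3p_1ss4TG at -1.69 and cpi-let-7g-3p_1ss8GA at -1.39 (limma adjusted p = 0.0649 and 0.160). The median was then -0.63 over the 5p profiles, -0.97 over the 3p profiles and 0.07 over all tested profiles. The part of base composition in these differences was not tested beyond this correction.

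**Figure D4:**
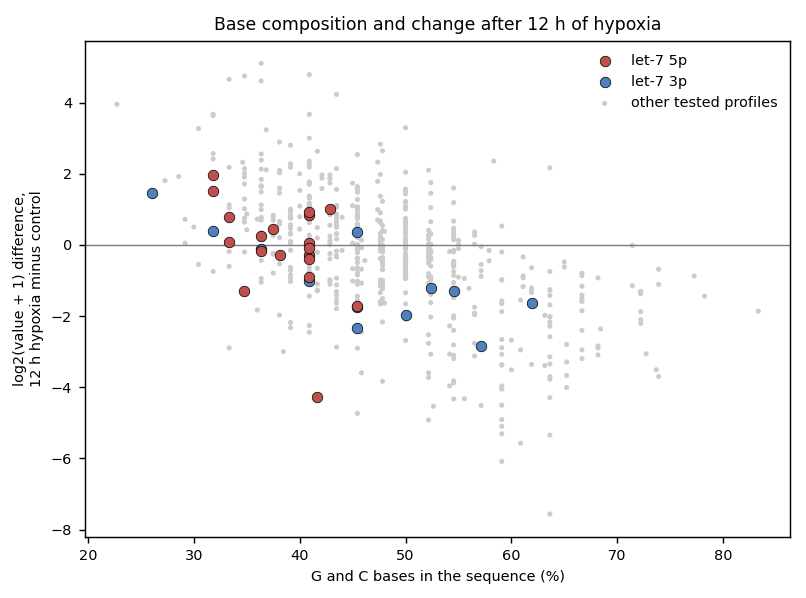
GC content of the sequence (%) against the log2(value + 1) difference between 12 h hypoxia and control, for the 19 tested let-7 5p profiles (red), the 12 tested 3p profiles (blue) and the 591 other tested profiles (grey). Let-7 profiles fall within the downward cloud of the others, with 1 5p profile listed at 0 in all 12 h libraries far below it.

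At 3 h of hypoxia no let-7 profile was called, and neither was any of the 622 tested profiles (0%). At an unadjusted p under 0.05 there were 0 let-7 profiles and 12 of all tested profiles, and the smallest limma adjusted p of a let-7 profile was 0.995. At 24 h no let-7 profile passed either, against 0.804% of all profiles, although 7 let-7 profiles had an unadjusted p under 0.05, as had 85 of all tested profiles, and the smallest limma adjusted p was 0.0700. Reoxygenation against control gave 1 call, the fall of cpi-let-7g-3p_1ss8GA described above, against 2.41% of all profiles (1.77% higher and 0.643% lower). Reoxygenation against 24 h of hypoxia gave no let-7 call and none among all profiles (0%), with 0 let-7 profiles at an unadjusted p under 0.05 and a smallest limma adjusted p of 0.962. All comparisons with control share the 3 control libraries.

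Complete separation of the groups was also counted outside the 12 h comparisons. After 3 h of hypoxia 2 of the 31 lay wholly above control and 1 wholly below, where 1.93% and 3.86% of all tested profiles did. At 24 h 1 lay above and 3 below, where 6.11% and 10.1% did. After reoxygenation 4 lay above and 4 below, where 7.4% and 9.65% did. Against 24 h of hypoxia no let-7 profile of reoxygenation lay wholly above or below, where 2.09% and 2.73% of all did.

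Between 12 h and 3 h of hypoxia, 8 let-7 profiles were called, 2 higher and 6 lower, while 15.9% of all tested profiles were called, 8.84% higher and 7.07% lower. The 12 h libraries lay wholly above the 3 h libraries for 4 of the 31 and wholly below for 13, where 21.1% and 29.1% of all profiles did. ssa-let-7e-5p rose by 2.66 ± 0.54 (SE, 6.31-fold, limma adjusted p = 0.00970) and ssa-let-7g-5p by 1.87 ± 0.44 (SE, 3.66-fold, limma adjusted p = 0.0149). cpi-let-7g-3p_1ss8GA fell by 3.14 ± 0.48 (SE, limma adjusted p = 0.00135), ssa-let-7b-5p by 2.36 ± 0.56 (SE, limma adjusted p = 0.0158) and ssa-let-7h-3p_1ss4TG by 2.05 ± 0.41 (SE, limma adjusted p = 0.00933), all on the log2 scale. None of these 5 overlapped between the groups. ssa-let-7i-2-3p_R-1 averaged 91.7 ± 9.1 after 12 h against 329 ± 59.6 after 3 h, and fell by 1.82 ± 0.50 (SE, limma adjusted p = 0.0253), a call that did not pass without any 1 of the 6 libraries compared (limma adjusted p from 0.0522 to 0.0922).

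After the GC correction 5 of the 8 calls held, all falls, and those of ssa-let-7g-5p and ssa-let-7e-5p (limma adjusted p = 0.309 and 0.0749) and of ssa-let-7i-2-3p_R-1 (-0.06, limma adjusted p = 0.969) did not. Without 12 h hypoxia library 1 the count was 1, without 12 h hypoxia library 3 or 3 h hypoxia library 3 it was 4, and without 3 h hypoxia library 1 it was 5. The fall of cpi-let-7g-3p_1ss8GA was called with each library left out in turn. An F-test over all 5 groups called 3 let-7 profiles, ssa-let-7e-5p, ssa-let-7h-3p_1ss4TG and cpi-let-7g-3p_1ss8GA (limma adjusted p = 0.0387, 0.0258 and 0.00218), and 6.75% of all tested profiles.

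The remaining calls between 12 h and 3 h of hypoxia were 2 forms with 2 more bases at the 5′ end, which shifts bases 2 to 8. They are printed with their own bases 2 to 8 in capitals, and were the 2 profiles of the 5p arm without the seed GAGGTAG shown above.
aca-let-7a-5p_L+2R-1: aATGAGGTagtaggttgtatagt
dre-let-7a_L+2_2ss19AG21AG: aATGAGGTagtaggttgtgtggtt

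Behind the 2 added bases, the first of these forms is ssa-let-7a-5p without its last base and the second is ssa-let-7b-5p. aca-let-7a-5p_L+2R-1 read 45, 375 and 385 in control, 388, 486 and 821 after 3 h of hypoxia, 74, 61 and 97 after 12 h, 48, 416 and 143 after 24 h, and 115, 310 and 179 after reoxygenation. The 3 h libraries were above all control and 12 h libraries, and control library 1 was below the 12 h libraries. It fell by 2.81 ± 0.82 at 12 h against 3 h (SE, limma adjusted p = 0.0338). That call did not pass without any 1 of the 6 libraries compared (limma adjusted p from 0.0613 to 0.122) or without the variance trend. dre-let-7a_L+2_2ss19AG21AG read 0, 97 and 72 in control, 75, 93 and 214 after 3 h of hypoxia, 0, 16 and 13 after 24 h, and 9, 16 and 7 after reoxygenation, and was listed at 0 in all 12 h libraries (limma adjusted p = 0.0119 against 3 h). Its 3 h libraries overlapped those of control and were above those of every later group.

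Set per 1000 of the member it extends, aca-let-7a-5p_L+2R-1 stood at 1.57, 9.36 and 9.77 in control, 8.10 to 20.4 after 3 h of hypoxia, 1.501 to 2.17 after 12 h, 0.99 to 4.15 after 24 h and 2.16 to 3.45 after reoxygenation. The form on ssa-let-7b-5p stood at 0, 7.46 and 6.51 in control, 4.79 to 14.8 after 3 h, 0 after 12 h, 0 to 1.74 after 24 h and 0.58 to 1.45 after reoxygenation. Both forms were thus low relative to their members at 12 h and later, and in control library 1. The 3 forms with more bases at the 3′ end, mmu-let-7j_1ss8TG, dre-let-7j_R+2 and xtr-let-7g_R+3, overlapped between groups at 0 to 10.7 per 1000 of the nearest member.

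The arms can be compared within a library, where its scaling cancels. By the number, letter and arm written in the name, 99 microRNAs of the table had both arms at a mean of at least 10. Of these, 6 were let-7: a, b, e, g, h and i. let-7c was left out because its 3p profile averaged 2.93, and let-7d because its 3p profile, cfa-let-7d_R-3, has no arm in its name. At 12 h of hypoxia against control the log2 ratio of 5p to 3p was higher for 5 of the 6, with a median difference of 1.23, against 0.25 over all 99 pairs. The let-7g pair was called, where 23.2% of all pairs were. The let-7b ratio was the lower one, at -0.49 ± 0.54 (SE), and did not pass (limma adjusted p = 0.538). Against 3 h of hypoxia, let-7g and let-7i were called higher (3.955 ± 0.59 and 2.41 ± 0.73, SE, limma adjusted p = 6.77e-05 and 0.0182). let-7b was called lower there (-1.46 ± 0.54, SE, limma adjusted p = 0.0463). How many of all pairs were called against 3 h was not counted, so these calls have no share of all pairs beside them. Other settings are not given for them either.

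The let-7g log2 ratio was 3.99, 3.17 and 3.17 in control, 3.11, 3.22 and 2.77 after 3 h of hypoxia, 6.92, 6.98 and 7.07 after 12 h, 7.07, 6.28 and 4.20 after 24 h, and 6.02, 5.79 and 7.26 after reoxygenation. Every library of the last 3 groups was above every control and 3 h library. The ratio changed by 3.55 ± 0.59 at 12 h (SE, limma adjusted p = 0.000281), 2.41 ± 0.59 at 24 h (SE, limma adjusted p = 0.0173) and 2.91 ± 0.59 at reoxygenation (SE, limma adjusted p = 0.00347). After the GC correction the changes at 12 h and 24 h were 1.52 and 1.55 and did not pass (limma adjusted p = 0.0907 and 0.110), and that at reoxygenation was 1.92 and passed (limma adjusted p = 0.0448). The 24 h call also did not pass without control library 2 or 3, without 24 h hypoxia library 1 or 2, or in a fit of the groups compared alone.

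At 12 h the let-7g pair held both the rise of ssa-let-7g-5p and the fall of cpi-let-7g-3p_1ss8GA. ssa-let-7g-3p_1ss22CT read 127, 132 and 107 after 12 h of hypoxia against 335, 82 and 82 in control, a log2 difference of -0.11 that did not pass (limma adjusted p = 0.929). A shared name does not show that both arms come from one hairpin. By predicted duplex energy (ViennaRNA) cpi-let-7g-3p_1ss8GA paired more stably with gmo-let-7j-5p, at -26.1 kcal/mol, than with ssa-let-7g-5p, at -24.2 kcal/mol. xtr-let-7g_R+3, the form of gmo-let-7j-5p with more bases at the 3′ end, was also at -26.1 kcal/mol and carries the name let-7g. The name let-7g therefore does not single out ssa-let-7g-5p. ssa-let-7g-3p_1ss22CT was at -18.0 kcal/mol with ssa-let-7g-5p and at -19.7 with ssa-let-7a-5p. These energies do not identify a partner, since they favoured the member of the same name for some 3p profiles only. ssa-let-7b-3p_R-1 was at -30.9 with ssa-let-7a-5p and -26.6 with ssa-let-7b-5p. ssa-let-7i-2-3p_R-1 was at -28.7 with ssa-let-7i-5p and -27.3 with ssa-let-7b-5p.

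Set against gmo-let-7j-5p instead, a choice made after seeing the data, the log2 ratio to cpi-let-7g-3p_1ss8GA was 8.03, 8.48 and 8.49 after 12 h of hypoxia, against 6.34, 5.35 and 5.29 in control. At 24 h it was 8.15, 6.33 and 4.85, and after reoxygenation 7.02, 5.65 and 8.24. The 12 h libraries still lay wholly above control, and those of the later groups overlapped it. The 12 h call held, and those at 24 h and reoxygenation did not (0.79 and 1.31, limma adjusted p = 0.503 and 0.241).

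Of the other pairs, let-7a was called at reoxygenation, with a 5p over 3p ratio higher by 1.27 ± 0.41 (SE, limma adjusted p = 0.0366), where 17.2% of all pairs were called. That call did not pass in 9 of the 15 fits with a library left out, among them those without control library 2 or 3 or any reoxygenation library, nor after the GC correction. At 24 h let-7g was the only let-7 pair called, where 8.08% of all pairs were. At 3 h none of the 6 was called, nor any of the 99 (0%), and the largest change was that of let-7b, 0.97 ± 0.54 (SE, limma adjusted p = 0.867). The let-7b log2 ratios were 2.96, 2.03 and 2.70 after 3 h of hypoxia against 0.66, 1.84 and 2.27 in control, which overlap. The median change of the 6 pairs was -0.41 at 3 h, 0.94 at 24 h and 1.27 at reoxygenation, against 0.10, 0.02 and 0.11 over all pairs.

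**Figure D5:**
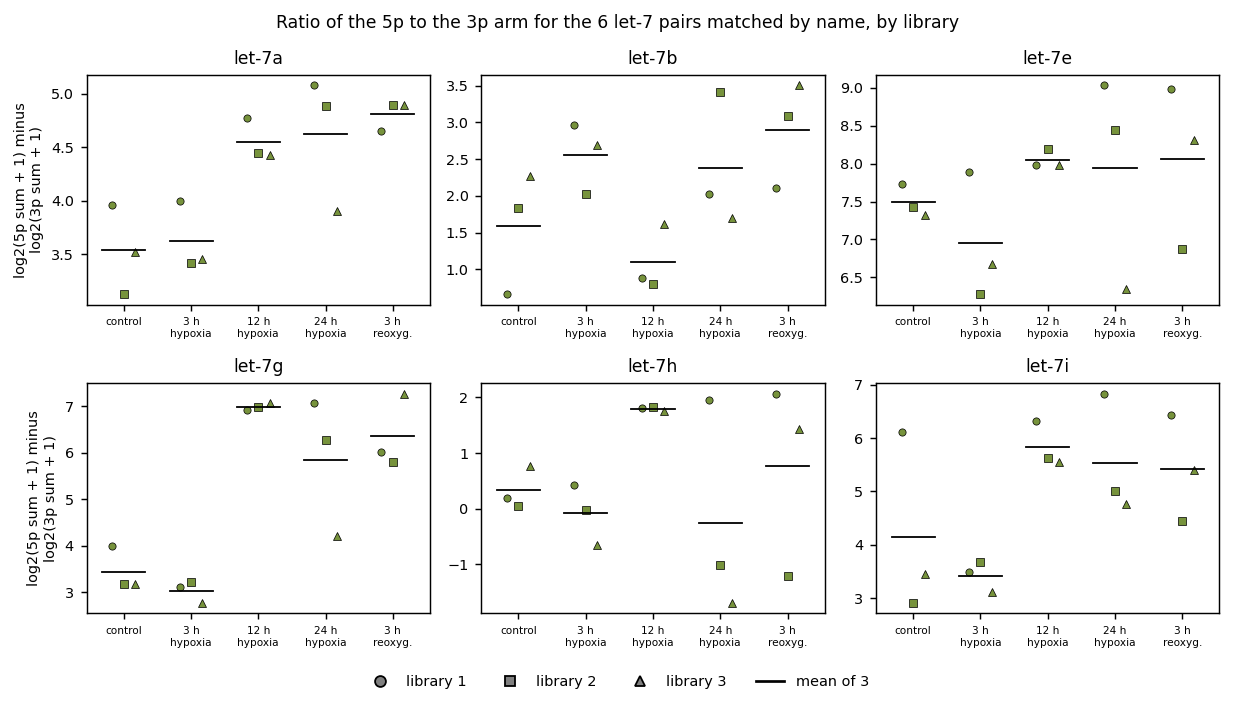
Log2 ratio of the summed 5p to the summed 3p values of the 6 let-7 pairs matched by name, in each library, with the mean of 3 libraries as a line. let-7g stands near 3 to 4 in control and 3 h hypoxia and near 7 at 12 h. At 12 h let-7a and let-7h lie above all control libraries, and let-7i above libraries 2 and 3 of control only.

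A few low profiles were high in reoxygenation library 1 alone. hsa-let-7d-5p read 464 there, against 10 and 7 in reoxygenation libraries 2 and 3 and 9 to 35 in the other 12 libraries. cfa-let-7d_R-3, from the 3p arm, read 1571 there, against 11 to 208 in the other 14 libraries. In that library 19 of the 622 tested profiles were at least 10 times as high as in any other library, and hsa-let-7d-5p was among them. At least 15 of the 19 had a mammal prefix, counted from a list that left out some mammals (efu, a bat, for example). Whether these reads come from trout was not tested, and their sequences are not shown. The salmon-named ssa-let-7d-5p read 404 in that library, 158 to 1051 in the others.

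Of the 10 profiles under the minimum mean, 5 were from each arm, and none exceeded 37 in any library. The highest, hsa-let-7d-5p_R-1, was also in reoxygenation library 1. hsa-let-7e-5p_R-1_2ss9GT18TA read 8 to 25 in control and 3 h hypoxia and 0 in all 12 h libraries. dre-let-7h_1ss17GA carried the same 15 values as a row named for hsa-miR-98-5p.

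The summed shares of some marker lists of other liver cells also differed at 12 h, as shares of a total in which miR-122 took more. The miR-126 rows of endothelium took 0.718% to 0.851% of the total at 12 h against 0.203% to 0.416% in control, and the stromal and smooth muscle rows (miR-143, miR-145, miR-199 and miR-214) 1.76% to 2.08% against 2.88% to 5.73%. The epithelial and bile duct rows took 0.108% to 0.119% against 0.249% to 0.440%. Red blood cell rows took 0.0844% to 0.122% against 0.0719% to 0.374%, and white blood cell rows 0.0538% to 0.0708% against 0.0542% to 0.203%, and both overlapped control. Members of a list went opposite ways in log2 difference. For red blood cells cfa-miR-486_R+1 was at -7.56 and ssa-miR-144-3p_R+1 at 1.04. For white blood cells dre-miR-150_1ss9TC was at -4.33 and ssa-miR-142a-5p_R+1 at 2.57. In the stromal list ssa-miR-199a-5p was at -0.90 and ssa-miR-199a-3p at 0.55. In the epithelial and bile duct list ssa-miR-205b-5p was at -1.46 and ssa-miR-203a-3p at 0.97. Muscle rows took at most 0.00820% and neural rows at most 0.000815% in all 15 libraries. Every marker of the 8 lists had a row. The part of these shifts in the let-7 differences was not tested.

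In the authors' deposited table, the authors' own p-value, from a test that is not named, was under 0.05 for 12 of the 41 let-7 profiles (29.3%) and 181 of all 1019 (17.8%).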

How the data were processed

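Liver small RNA libraries were grouped by their titles, and RNA was extracted with Trizol, per the labels' protocols. The authors deposited a normalized value for each row in each library, rounded to whole numbers, which is treated as a score because its scale is not given in the sources used here. The p-value that the authors deposited for each row comes from an unnamed test and was only counted. The sources used here do not give the aligner, annotation, build or filters. Sequences were read from the deposited table. Coordinates are left out, since no genome was used.

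Rows averaging 10 or more across libraries (752 rows, 622 profiles) were fitted together as log2(value + 1) by limma 3.58.1 (R 4.3.3), all 5 groups in 1 fit, with the prior variance trended on the mean. That scale understates changes of low rows. p-values were adjusted by Benjamini-Hochberg over all tested rows in each comparison, and a call is an adjusted p under 0.05. A count test had been planned in case of raw counts, which these values are not. Arm pairs were fitted likewise on log2(5p sum + 1) minus log2(3p sum + 1), over 99 pairs, with the prior variance trended on the lower arm. Pairs used only profiles with the arm in the name, and both arms had to average 10 or more. Duplex energies came from ViennaRNA 2.7.2, and tables and figures from Python 3.11.15.

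Other settings were other pseudocounts, filters, scalings, variance models, 1 row per profile, sums over forms, a lowess correction on GC content per library (span 0.5), libraries left out, separate fits of each pair of groups, and a replicate block. The fit was tested on simulated data. Members and lists were chosen with earlier results of these data known. Values per library are given for the 6 most abundant 5p and 4 most abundant 3p profiles, every called profile and the pair that changed most in each comparison. Marker shares and the ratios between 5p members, that of let-7a to let-7j among them, are descriptions.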

Additional observations from a re-analysis of the deposited data

How the results depend on the processing

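At 12 h of hypoxia against control, 4 let-7 profiles were called. The count was 8, all lower, with values scaled to the library total, 2, both lower, when that total left out miR-122, 2 without the variance trend, 15 with array weights, 0 after the GC correction, 7 in a fit of the groups compared alone and 11 without library 1 of 24 h hypoxia and of reoxygenation. Over all profiles, where 44 were called, these settings called 59, 18, 36, 275, 10, 105 and 138. Of the 4, the fall of cpi-let-7g-3p_1ss8GA held in 14 of 15 such settings, that of ssa-let-7h-3p_1ss4TG in 14, and the rises of ssa-let-7g-5p and ssa-let-7e-5p in 9 and 11. At 24 h, where 0 were called, the count was 1 with a pseudocount of 5, with scaling to the total or with forms summed, 6 with array weights and 2 without both libraries 1. Over all profiles, where 5 were called, these settings called 9, 4, 8 (of the summed forms), 108 and 43. At reoxygenation, where 1 was called, the let-7 count was 0 under both scalings to the total, after the GC correction and on the groups compared alone, 2 with quantile normalization, 5 with array weights and 3 without both libraries 1. Over all profiles, where 15 were called, these settings called 10 and 13, 16, 0, 22, 78 and 66. Between 12 h and 3 h of hypoxia, where 8 were called, the let-7 count was 15 with scaling to the total or array weights, 5 after the GC correction and 14 on the groups compared alone. Over all profiles, where 99 were called, these settings called 182, 257, 63 and 214. The F-test, which called 3, called 5 with quantile normalization, 1 without the trend or after the GC correction, 19 with array weights, 6 with a replicate block and 11 without both libraries 1. Over all profiles, where 42 were called, these settings called 40, 33, 30, 318, 45 and 155. In all other settings tried, counts of called profiles were within 1.5 times the reported ones.

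Of the 6 arm pairs, 1 was called at 12 h. The count was 2 with the most abundant profile of each arm, on the groups compared alone or without both libraries 1, and 0 after the GC correction. At 24 h, the 1 called pair was lost (0) after the GC correction, on the groups compared alone, with gmo-let-7j-5p as partner and without both libraries 1. At reoxygenation, where 2 were called, it was 1 after the GC correction, on the groups compared alone and with gmo-let-7j-5p as partner.

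With each library left out in turn, the count of called profiles ran from 1 to 11 at 12 h against control, 0 to 2 at 24 h, 0 to 3 at reoxygenation, 1 to 11 at 12 h against 3 h and 1 to 9 in the F-test, and was 0 in the other comparisons. At 12 h against control it was 11 without control library 1, 7 without 24 h hypoxia library 1, 8 without reoxygenation library 1, 2 without any 3 h hypoxia library, and 1 without control library 2 or 3 or any 12 h hypoxia library. At 24 h it was 2 without control library 1, 24 h hypoxia library 3 or reoxygenation library 1, and 1 without 24 h hypoxia library 1 or reoxygenation library 3. Called arm pairs ran from 1 to 3 at 12 h, 0 to 3 at 24 h and 1 to 3 at reoxygenation, with 0 at 3 h. The 3 at 12 h and at 24 h came without control library 1.

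At 12 h against control the sign changed for 10 of the 31 profiles scaled to the total, 3 with miR-122 out of it, 8 after the GC correction, 4 with forms summed, 3 with quantile normalization, 2 with array weights and at most 3 with a library left out, none of them called. ssa-let-7a-5p (0.25) was at -0.77 scaled to the total, -0.059 when miR-122 was left out of it and -0.63 after the GC correction. ssa-let-7i-5p (0.04) was at -0.98, -0.26 and -0.37, and ran from -0.20 to 0.37 with a library left out, below 0 without control library 2, control library 3 or 12 h hypoxia library 1. aca-let-7a-5p_L+2R-1, called lower at 12 h against 3 h, was at 0.052 with forms summed, since the sum holds ssa-let-7a-5p. The cause of the other changes was not tested.

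Replicate numbers were not shown to pair libraries: deviations of same-numbered libraries of different groups correlated at -0.30 to 0.53 (median 0.02, 30 pairs), those of other numbers at -0.55 to 0.42. With a replicate block the count of called profiles was 6 at 12 h, 0 at 24 h, 1 at reoxygenation, 10 between 12 h and 3 h and 6 in the F-test, and the arm pairs called at 12 h were 2.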

Other observations

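A list of let-7 relatives, by seed (miR-98, miR-202) or by clusters with let-7 genes in vertebrates (miR-99, miR-100, miR-125), gave 23 profiles, of which 22 were tested. None was miR-202 and 1 was miR-98, from the 3p arm. The row named for hsa-miR-98-5p carried the values of dre-let-7h_1ss17GA and was counted with let-7, so the let-7 seed is not represented in this list. At 12 h of hypoxia against control 1 was called lower, ssa-miR-125a-3p, which read 0, 12 and 2 after 12 h of hypoxia against 82, 64 and 53 in control (log2 change -4.29 ± 1.04, SE, limma adjusted p = 0.0248). Of all tested profiles 7.07% were called in that comparison, 2.25% as lower. The GC content of ssa-miR-125a-3p was 63.6%. Other settings, the GC correction among them, are not given for this list. The median of the 22 was -0.54, against -0.19 over all tested profiles. Between 12 h and 3 h of hypoxia 1 was called higher, dre-miR-100-2-3p, at 320, 606 and 469 after 12 h against 145, 125 and 116 after 3 h (1.80 ± 0.47, SE, limma adjusted p = 0.0234), and ssa-miR-125a-3p was called lower (-4.06 ± 1.04, SE, limma adjusted p = 0.0217). Between 12 h and 3 h of hypoxia 15.9% of all tested profiles were called. None of the 22 was called at 3 h, 24 h or reoxygenation against control, or at reoxygenation against 24 h of hypoxia. Over all tested profiles the shares called in these comparisons were 0%, 0.804%, 2.41% and 0%. The most abundant of them, ssa-miR-100a-5p_R-1 and ssa-miR-125a-5p, differed by 0.09 and -0.50 at 12 h against control and did not pass (limma adjusted p = 0.913 and 0.391).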
